A study of Mus musculus with 9 samples.

Results

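The epidermal permeability barrier is built from ceramides, and the genes described here are the 44 that encode its ceramide and lipoxygenase pathway, chosen by symbol out of 52550 genes in the table. All 44 were found, each under a single symbol. They cover 13 roles, from the condensation of serine with palmitoyl-CoA to the breakdown of sphingosine 1-phosphate.

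In the outer epidermis, keratinocytes make a sphingoid base, join it to a very long fatty acid through a ceramide synthase, and esterify part of the product with linoleic acid to form acylceramide. Ceramides are glucosylated, packed into lamellar granules and secreted, after which the sugar is removed. The epidermal lipoxygenases oxidize the linoleic acid of acylceramide, a step towards binding ceramide to the cornified envelope, and inherited loss of several of these enzymes causes ichthyosis.

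RNA of mouse ear epidermis was sequenced in 9 libraries, 3 per group, from wild type mice aged 8 weeks, labelled C57BL/6 and named C57BL/6J in the methods. Control animals (VAS+H2O) had Vaseline on the ear for 5 days and water by gavage for 10 days. The model group (IMQ+H2O) had imiquimod cream, which activates Toll-like receptor 7 and causes psoriasis-like skin inflammation, in place of Vaseline. The treated group (IMQ+XYF) had imiquimod and 200 µl of XYF decoction, a herbal mixture given at 23.3 mg/g, by daily gavage for 10 days, starting before the imiquimod. The labels and methods give daily gavage, whereas a legend of the study gives a higher frequency, so the dose per day is uncertain. The methods of the study name male mice and ear sheets from a pair of mice. Whether each library holds a separate pair is not stated, so p-values measure the spread between these libraries, and counts from bulk tissue cannot separate fewer cells of a type from less RNA per cell. Library totals ran from 30298275 to 64771160 counts, with a median of 34913386. Of all counts, VAS+H2O libraries had 0.639 ± 0.0320% in the members, IMQ+H2O libraries 0.616 ± 0.0558% and IMQ+XYF libraries 0.604 ± 0.0250% (mean ± SD, n = 3).

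Levels are given as CPM, the count of a gene scaled to a common library size, after TMM scaling, which also corrects for differences in RNA makeup between libraries. A fold change is on the log2 scale with its standard error (SE), from edgeR's quasi-likelihood test with Benjamini-Hochberg adjustment over all genes tested. A gene is called higher or lower at an adjusted p of at most 0.05, and a differentially expressed gene (DEG) must also reach a log2 fold change of 1 in size. Replicate values are listed in the order of replicates 1, 2 and 3.

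Markers of the epidermis were abundant in every library. The 4 suprabasal keratinocyte markers, led by Krt10, summed to 30057, 27979 and 34450 CPM in VAS+H2O, to 45548, 39350 and 29675 in IMQ+H2O and to 31828, 36809 and 35580 in IMQ+XYF. Krt1 and Dsc1 were called higher in both imiquimod groups than in VAS+H2O, and Dsg1a was lower in IMQ+XYF. The 5 granular layer markers, led by Lor, summed to 2183, 1838 and 2013 CPM in VAS+H2O, to 2597, 2123 and 1039 in IMQ+H2O and to 1658, 1941 and 1602 in IMQ+XYF. IMQ+H2O replicate 3 was thus the lowest of its group for both differentiated layers. Of the granular markers Tgm3 was higher in both imiquimod groups, while Flg and Flg2 were lower in IMQ+XYF than in VAS+H2O. Of 5 basal markers, led by Krt5, Krt14 was higher and Col17a1 lower in both imiquimod groups, and their sum was 16596, 15207 and 19505 CPM in VAS+H2O, 20947, 21049 and 24266 in IMQ+H2O and 22704, 23778 and 22083 in IMQ+XYF. Of 10 sebaceous gland markers, led by Fabp5, Fabp5 and Dgat2l6 were higher and Scd3 lower in both imiquimod groups, with sums of 2035, 1854 and 1438 CPM in VAS+H2O, 3167, 2832 and 3367 in IMQ+H2O and 3127, 2904 and 2970 in IMQ+XYF. Fabp5, which keratinocytes also express, made up 525, 498 and 492 CPM of that sum in VAS+H2O, 1768, 1344 and 2185 in IMQ+H2O and 1693, 1424 and 1564 in IMQ+XYF, and the median log2 fold change of the 10 was 0.21 in IMQ+H2O and 0.06 in IMQ+XYF.

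Markers of other tissues differed in level between libraries, which does not by itself give the amount of each tissue. VAS+H2O replicate 2 stood apart from its group: its 7 dermal fibroblast markers, led by Dcn, summed to 646 CPM against 73.0 in replicate 1 and 104 in replicate 3. The fibroblast sum was 48.0, 50.1 and 53.3 CPM in IMQ+H2O and 210, 157 and 73.5 in IMQ+XYF, and 2 of the 7, Col1a2 and Pdgfrb, were lower in IMQ+H2O than in the controls. The 6 cartilage markers, led by Acan and with Matn1 at no more than 3 counts in any library, summed to 152, 359 and 162 CPM in VAS+H2O, to 69.4, 47.8 and 29.8 in IMQ+H2O and to 166, 110 and 108 in IMQ+XYF. All 4 cartilage markers that could be tested were lower in IMQ+H2O than in the controls, and Col9a1 was higher with decoction than with imiquimod alone (log2 fold change 2.26, adjusted p 0.0193). The 5 skeletal muscle markers, led by Acta1, summed to 6.22, 122 and 7.66 CPM in VAS+H2O, to 3.21, 6.37 and 6.64 in IMQ+H2O and to 15.9, 36.5 and 5.04 in IMQ+XYF, with 0 called. The 5 neutrophil markers, led by Cxcr2, summed to 11.0, 10.7 and 12.7 CPM in VAS+H2O, to 49.4, 51.7 and 135 in IMQ+H2O and to 85.0, 62.5 and 62.9 in IMQ+XYF. Ly6g, Mpo and Retnlg had 0 counts in all VAS+H2O libraries. In each of those libraries 1 of the 5 markers had over 3 counts. The control sum is thus nearly all Cxcr2 and is not by itself a measure of neutrophils. Cxcr2 was called higher in both imiquimod groups, and Csf3r in IMQ+XYF against VAS+H2O. Csf3r was not among the genes tested in IMQ+H2O against VAS+H2O. Between the imiquimod groups it differed by −0.35 and was not called. Markers of hair follicle, adipocytes, leukocytes, melanocytes and endothelium gave 0 calls by edgeR in all 3 comparisons, and Langerhans cell markers gave 1, Mfge8 higher in IMQ+XYF than in VAS+H2O. The part of these cell types and layers in the results below was not tested.

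Levels between genes are compared as CPM per kilobase of exon. In VAS+H2O the highest of the 44 was Elovl4, whose product builds the ultra-long acyl chains of acylceramide, at 195 ± 12.9 CPM per kb (SD, n = 3). Psap, the precursor of the saposins that help remove sugar from glucosylceramide, stood at 160 ± 5.16 and the fatty acid 2-hydroxylase Fa2h at 158 ± 58.8 CPM per kb. The next levels were Alox12e, a lipoxygenase of mouse epidermis, at 121 ± 10.8 CPM per kb and the epidermal alkaline ceramidase Acer1 at 116 ± 12.2 CPM per kb. The spread of Fa2h takes in the mean levels of Elovl4, Psap, Alox12e and Acer1, so its place in this order is not settled, and Alox12e and Acer1 lie within an SD of each other. Among the highest members of the other roles were the serine palmitoyltransferase subunit Sptssa at 101 ± 14.9, the fatty acid transporter Slc27a4 at 78.6 ± 20.2 and the desaturase Degs1 at 56.8 ± 26.7 CPM per kb. Lower in the order came the lamellar granule lipid transporter Abca12 at 34.2 ± 2.91, the acid sphingomyelinase Smpd1 at 30.3 ± 3.08 and the ceramide synthase Cers3 at 24.8 ± 1.57 CPM per kb. The sphingosine phosphate lyase Sgpl1 stood at 21.8 ± 2.66 and the reductase Kdsr at 9.32 ± 0.408 CPM per kb. At the foot of the list were Alox8 at 0.787 ± 0.228 and Degs2 at 0.785 ± 0.257 CPM per kb. Sptssb, a small subunit of serine palmitoyltransferase, had 0 to 10 counts per library and was the single member that edgeR's filter on low counts removed from the tests. For scale, 3 counts correspond to 0.0463 to 0.0990 CPM depending on the library.

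**Figure D1:**
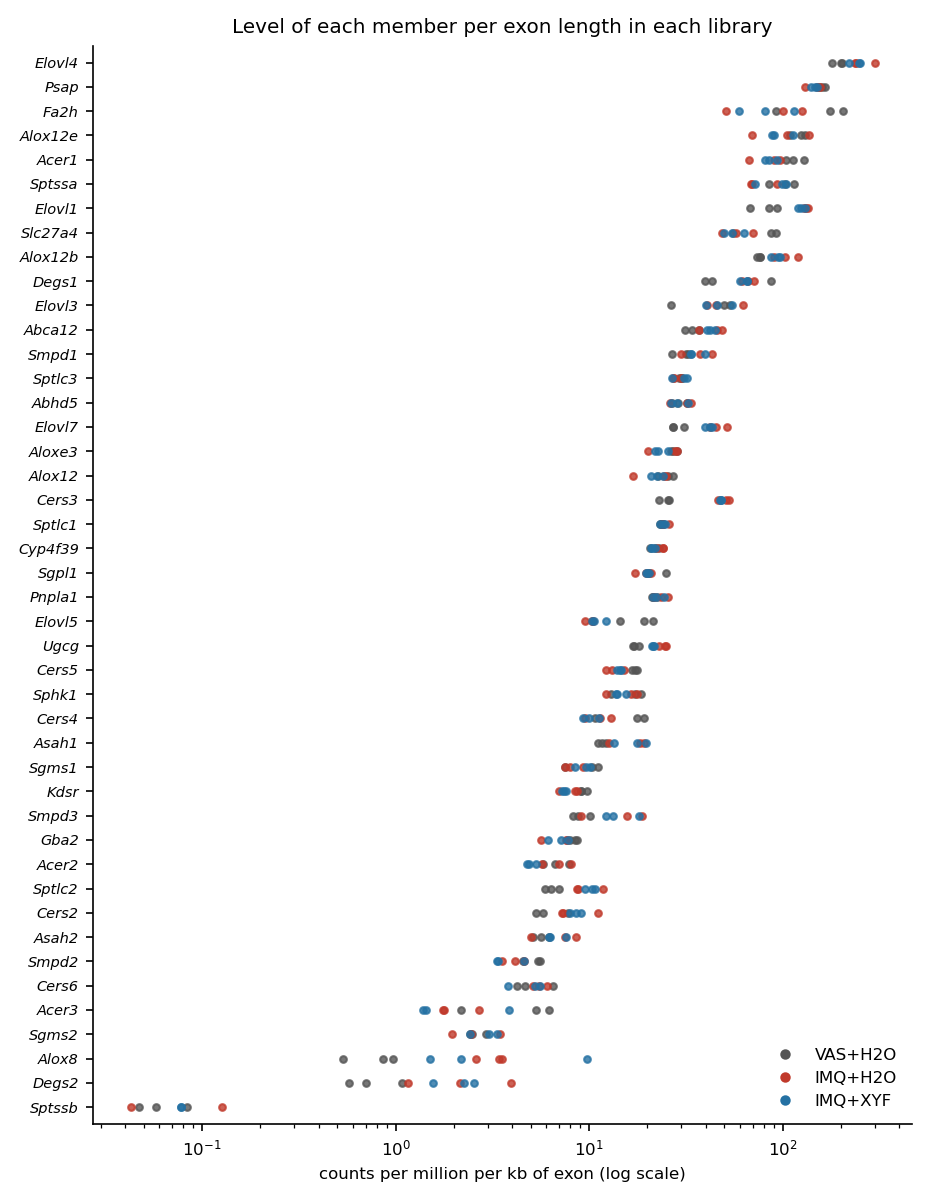
Level of each member in every library as CPM per kilobase of exon, on a log axis, with 1 point per library coloured by group; libraries with 0 counts of Sptssb are not drawn. Elovl4 lies at the top in VAS+H2O at 195 CPM per kb, and Alox8, Degs2 and Sptssb lie at the bottom.

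IMQ+H2O against VAS+H2O asks what imiquimod does to the pathway. Of the 43 members tested, 7 were called higher and 2 lower. Cers3, Elovl1, Elovl7, Sptlc2, Ugcg, Alox12b and Alox8 rose, and Elovl5 and Cers5 fell. The 7 are 16.3% of the members tested, beside 12.7% called higher among all 18009 genes tested, and the 2 are 4.65%, beside 9.41% called lower. One member, Alox8, was a DEG, against 3.64% of all genes as higher DEGs and 4.04% as lower DEGs. The median log2 fold change was 0.05 for the members and −0.03 for all genes, with 23 members above 0 and 20 below. The calls lay in both directions, and whether their shares differ from those of all genes was not tested. IMQ+XYF against VAS+H2O describes imiquimod and decoction together and uses the same control libraries, so the values of both are given side by side and are not independent. In it 12 members were called higher, 27.9% beside 16.7% of all 17954 genes tested, and 5 lower, 11.6% beside 12% of all genes. Higher DEGs were 2 members, Alox8 and Degs2, against 4.58% of all genes, and lower DEGs 0, against 3.05%. The median log2 fold change there was −0.00 for the members and −0.04 for all genes. A call in one comparison and not in the other does not show that the comparisons differ, and that difference was not tested.

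**Figure D2:**
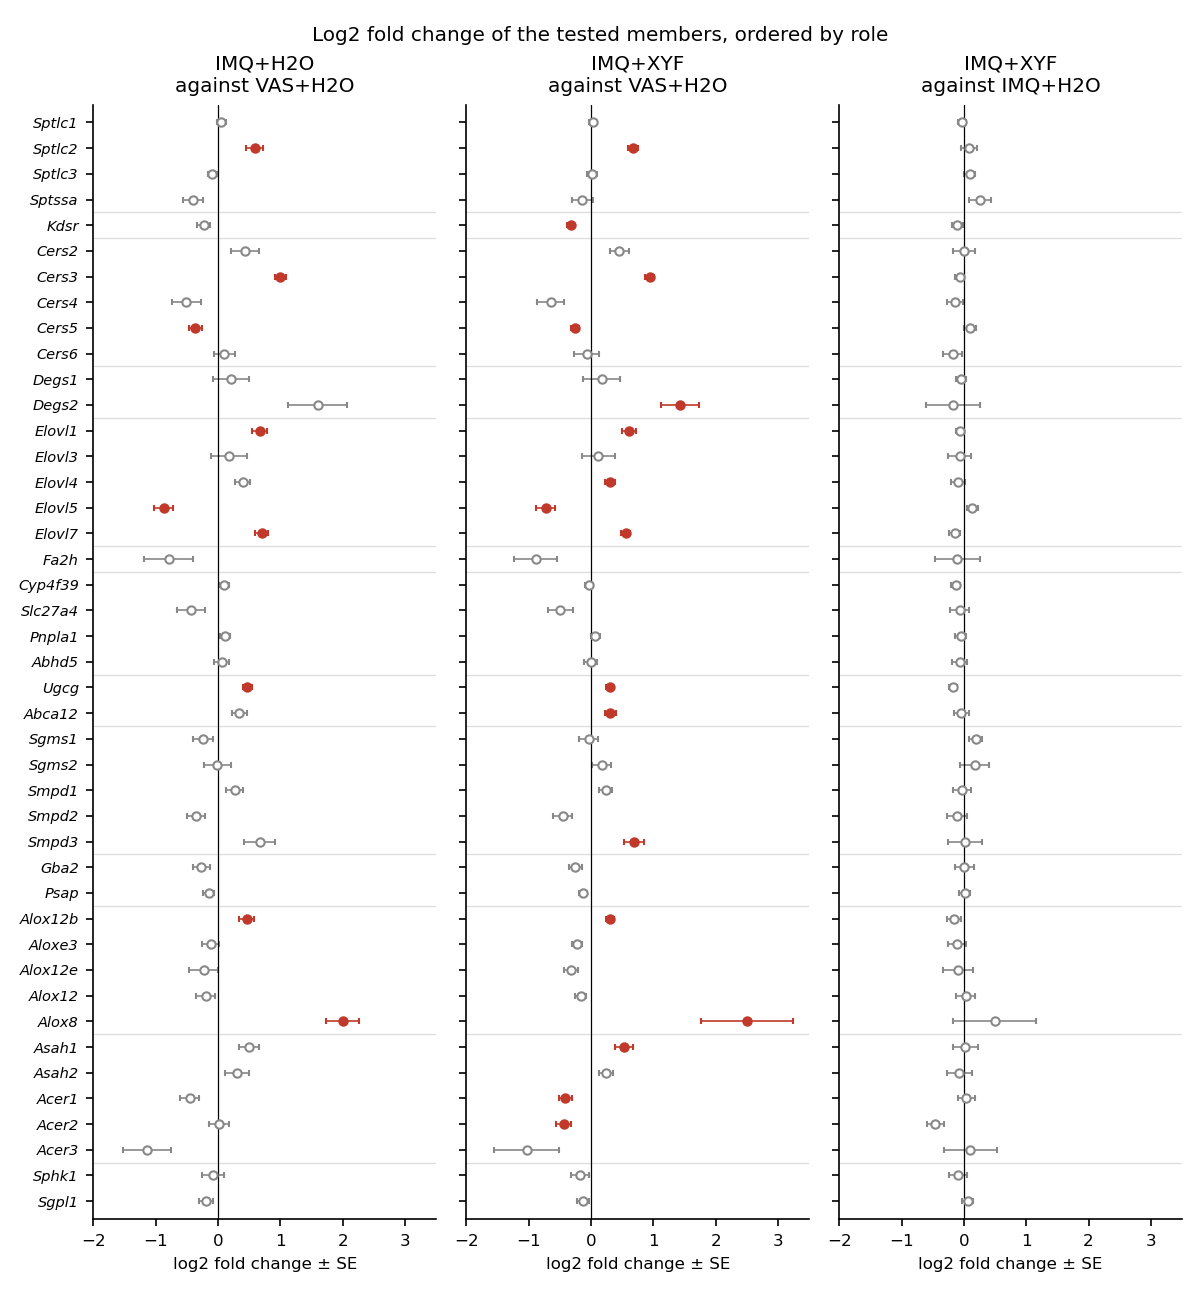
Log2 fold change with SE of the 43 tested members in each of the 3 comparisons; filled red points have an adjusted p of at most 0.05 and open grey points do not. Filled points appear in both comparisons against VAS+H2O, 9 for IMQ+H2O and 17 for IMQ+XYF, and none appears for IMQ+XYF against IMQ+H2O.

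The ceramide synthases attach the acyl chain, and Cers3 is the one that uses the ultra-long chains of acylceramide. Cers3 measured 83.7, 75.0 and 83.9 CPM in VAS+H2O, 165, 151 and 173 in IMQ+H2O and 156, 154 and 156 in IMQ+XYF. All 6 imiquimod libraries lay above all 3 controls. The log2 fold change of IMQ+H2O was 0.999 (SE 0.09, adjusted p 0.00355), just under the DEG threshold, and that of IMQ+XYF was 0.94 (SE 0.07, adjusted p 0.000628). Cers5, which prefers shorter saturated chains, measured 58.8, 61.0 and 62.5 CPM in VAS+H2O, 53.5, 43.2 and 46.3 in IMQ+H2O and 49.1, 51.3 and 51.6 in IMQ+XYF. It was thus lower in every imiquimod library than in every control, with a log2 fold change of −0.36 (SE 0.10, adjusted p 0.0420) in IMQ+H2O and −0.26 (SE 0.06, adjusted p 0.0216) in IMQ+XYF. Its IMQ+H2O call held in 1 of 6 fits that left out a library, that without IMQ+H2O replicate 1, and lay between −0.39 and −0.26 in the others. Among the same kind of fits its IMQ+XYF call held without VAS+H2O replicate 1 alone, with −0.27 to −0.22 in the other fits. Cers2, Cers4 and Cers6 were not called. Without VAS+H2O replicate 3 Cers4 was called lower in both comparisons, at −0.69 and −0.85, and without VAS+H2O replicate 2 Cers2 was called higher in IMQ+XYF, at 0.63.

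Of the 5 elongases, 2 rose and 1 fell in IMQ+H2O, beside 12.7% of all genes called higher and 9.41% called lower. Elovl7, which lengthens long chain acyl-CoAs, measured 124, 109 and 109 CPM in VAS+H2O, 207, 182 and 170 in IMQ+H2O and 174, 159 and 169 in IMQ+XYF. On the log2 scale the difference from the controls was 0.70 (SE 0.10, adjusted p 0.00927) in IMQ+H2O and 0.56 (SE 0.08, adjusted p 0.00336) in IMQ+XYF, with no overlap between either group and the controls. Elovl1, the elongase that supplies saturated chains to ceramide synthesis, measured 232, 186 and 254 CPM in VAS+H2O, 351, 358 and 368 in IMQ+H2O and 357, 338 and 329 in IMQ+XYF. It rose by 0.67 (SE 0.12, adjusted p 0.0134) in IMQ+H2O and by 0.61 (SE 0.12, adjusted p 0.0106) in IMQ+XYF on the log2 scale, and every imiquimod library was above every control. Elovl5 acts on polyunsaturated fatty acids. It measured 67.5, 75.4 and 50.8 CPM in VAS+H2O, 36.7, 33.7 and 36.4 in IMQ+H2O and 36.6, 43.2 and 37.1 in IMQ+XYF. The log2 difference was −0.87 (SE 0.15, adjusted p 0.0135) in IMQ+H2O and −0.73 (SE 0.15, adjusted p 0.0143) in IMQ+XYF, so that the elongases moved in opposite directions. The IMQ+XYF call of Elovl5 was lost without IMQ+XYF replicate 1, at −0.66, or replicate 3, at −0.69. Elovl4, at 607, 617 and 545 CPM in VAS+H2O, measured 907, 727 and 713 in IMQ+H2O and 754, 761 and 669 in IMQ+XYF. It was above the controls in all 6 imiquimod libraries, but its log2 fold change of 0.39 (SE 0.12, adjusted p 0.0583) in IMQ+H2O was not called. In IMQ+XYF it was called at 0.30 (SE 0.09, adjusted p 0.0387), and among fits that left out a library the call held without IMQ+XYF replicate 3 alone, with 0.27 to 0.34 in the others. Elovl3 was not called in either comparison.

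The first step of the pathway, serine palmitoyltransferase, gave 1 higher call in each comparison against VAS+H2O. Of all genes 12.7% were called higher in IMQ+H2O and 16.7% in IMQ+XYF. Sptlc2, a catalytic subunit, measured 56.4, 51.5 and 48.1 CPM in VAS+H2O, 70.8, 70.7 and 95.3 in IMQ+H2O and 77.3, 83.9 and 87.6 in IMQ+XYF. It rose by 0.59 (SE 0.14, adjusted p 0.0283) in IMQ+H2O and by 0.67 (SE 0.09, adjusted p 0.00263) in IMQ+XYF on the log2 scale. The controls lay below all imiquimod libraries, yet the IMQ+H2O call was lost without VAS+H2O replicate 1, 2 or 3, at 0.65, 0.59 and 0.57. Sptssa, the most abundant subunit per length, measured 130, 156 and 175 CPM in VAS+H2O, 104, 106 and 142 in IMQ+H2O and 157, 110 and 150 in IMQ+XYF. These ranges overlap, and the log2 fold changes of −0.40 (SE 0.16, adjusted p 0.119) and −0.14 (SE 0.16, adjusted p 0.557) were not called. The IMQ+XYF value of Sptssa ran from −0.25 without VAS+H2O replicate 1 to 0.02 without IMQ+XYF replicate 2. Kdsr, which reduces 3-ketosphinganine in the next step, measured 79.8, 73.9 and 74.1 CPM in VAS+H2O, 68.9, 70.2 and 56.7 in IMQ+H2O and 61.8, 60.5 and 59.1 in IMQ+XYF. It lay under the controls in all 6 imiquimod libraries, at −0.23 (SE 0.10, adjusted p 0.141) in IMQ+H2O, not called, and −0.33 (SE 0.06, adjusted p 0.0101) in IMQ+XYF, called lower.

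The desaturase Degs1 introduces the double bond of ceramide, and Degs2 adds the hydroxyl group of phytoceramide. Degs2 was low, at 2.77, 1.82 and 1.49 CPM in VAS+H2O, 5.53, 2.99 and 10.2 in IMQ+H2O and 6.58, 4.01 and 5.81 in IMQ+XYF. No control reached any imiquimod library. Its log2 fold change of 1.60 (SE 0.47, adjusted p 0.0517) in IMQ+H2O missed the threshold. Among the fits that left out a library it ranged from 1.05, without IMQ+H2O replicate 3, to 1.97, without IMQ+H2O replicate 2, where it was called. In IMQ+XYF it was a DEG at 1.43 (SE 0.30, adjusted p 0.0142). Degs1 measured 112, 103 and 227 CPM in VAS+H2O, 171, 160 and 183 in IMQ+H2O and 170, 157 and 169 in IMQ+XYF. VAS+H2O replicate 3 was the highest of all 9 libraries and the other controls were the lowest, with log2 fold changes of 0.21 (SE 0.29, adjusted p 0.632) and 0.17 (SE 0.29, adjusted p 0.697). Without that replicate Degs1 was called higher in both comparisons, at 0.70 in IMQ+H2O and 0.64 in IMQ+XYF, and without VAS+H2O replicate 2 it lay at 0.01 and −0.03.

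Fa2h and Slc27a4 varied widely among the controls. Fa2h, which makes the 2-hydroxy fatty acids of skin ceramides, measured 528, 620 and 278 CPM in VAS+H2O, 377, 301 and 153 in IMQ+H2O and 180, 346 and 244 in IMQ+XYF. The groups overlapped through VAS+H2O replicate 3, and the log2 fold changes were −0.79 (SE 0.39, adjusted p 0.189) and −0.89 (SE 0.34, adjusted p 0.0953). Slc27a4, which takes up and activates fatty acids, measured 385, 410 and 245 CPM in VAS+H2O, 311, 253 and 215 in IMQ+H2O and 242, 279 and 219 in IMQ+XYF. The log2 differences were −0.43 (SE 0.22, adjusted p 0.202) and −0.49 (SE 0.20, adjusted p 0.110). Neither gene was called. Without VAS+H2O replicate 3 both were called lower in IMQ+XYF, Fa2h at −1.14 and Slc27a4 at −0.67. Without VAS+H2O replicate 2 they were at −0.65 and −0.35 there and uncalled, and Fa2h in IMQ+H2O was at −0.50 without IMQ+H2O replicate 3. The acylceramide genes Cyp4f39, Pnpla1 and Abhd5, with roles in hydroxylating the chain end and transferring linoleic acid, were not called, and the 4 members of that role lay between −0.43 and 0.11 in IMQ+H2O and between −0.49 and 0.07 in IMQ+XYF.

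Ugcg adds glucose to ceramide, and it rose in both comparisons. It measured 88.6, 88.2 and 94.0 CPM in VAS+H2O, 129, 119 and 130 in IMQ+H2O and 112, 110 and 112 in IMQ+XYF. The replicates of each group lay close together and the 3 groups did not overlap. The fold change (log2) was 0.47 (SE 0.07, adjusted p 0.0105) in IMQ+H2O and 0.30 (SE 0.06, adjusted p 0.00998) in IMQ+XYF. Abca12, which loads glucosylceramide into lamellar granules, measured 506, 463 and 549 CPM in VAS+H2O, 682, 718 and 545 in IMQ+H2O and 622, 662 and 601 in IMQ+XYF. IMQ+H2O replicate 3 fell within the control range, and the log2 fold change of 0.34 (SE 0.12, adjusted p 0.0902) was called without that library, at 0.46. In IMQ+XYF Abca12 was called higher at 0.31 (SE 0.09, adjusted p 0.0351), and with a library left out the call held without VAS+H2O replicate 3 alone, at 0.25 to 0.35 in the other fits. Psap measured 426, 454 and 441 CPM in VAS+H2O, 430, 412 and 360 in IMQ+H2O and 405, 415 and 386 in IMQ+XYF. It was not called, at −0.15 (SE 0.09, adjusted p 0.280) and −0.13 (SE 0.06, adjusted p 0.170), and neither was Gba2, the non-lysosomal glucosylceramidase.

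Of the 5 sphingomyelin genes edgeR called 0 in IMQ+H2O, with 2 at an unadjusted p under 0.05 (Smpd2 and Smpd3), beside 37.9% of all genes, and DESeq2 called 1, Smpd3. Smpd3, a neutral sphingomyelinase that releases ceramide, measured 53.1, 45.9 and 43.3 CPM in VAS+H2O, 98.2, 82.3 and 47.6 in IMQ+H2O and 69.7, 95.3 and 64.3 in IMQ+XYF. IMQ+H2O replicate 3 lay among the controls, and the log2 fold change of 0.67 (SE 0.25, adjusted p 0.0999) was called by edgeR without it, at 0.92. In IMQ+XYF Smpd3 was called higher at 0.69 (SE 0.16, adjusted p 0.0206), a call lost without VAS+H2O replicate 2, at 0.67, or replicate 3, at 0.65. Smpd1 measured 108, 89.4 and 106 CPM in VAS+H2O, 144, 124 and 99.9 in IMQ+H2O and 112, 133 and 112 in IMQ+XYF. It was not called, at 0.26 (SE 0.14, adjusted p 0.226) and 0.23 (SE 0.10, adjusted p 0.139). Smpd2 was called lower in IMQ+XYF by DESeq2, at −0.45, and by edgeR without IMQ+XYF replicate 2, at −0.60. The synthases Sgms1 and Sgms2 were not called.

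Among the lipoxygenases, Alox8 and Alox12b rose and Alox12, Alox12e and Aloxe3 were not called. Alox8 oxidizes arachidonic and linoleic acid and is known to be induced in irritated mouse skin. It measured 3.45, 3.07 and 1.89 CPM in VAS+H2O, 12.1, 9.28 and 12.6 in IMQ+H2O and 5.36, 34.8 and 7.72 in IMQ+XYF. All 6 imiquimod libraries lay above the controls, and IMQ+XYF replicate 2 stood far above the rest. The log2 fold change was 2.0 (SE 0.26, adjusted p 0.00796) in IMQ+H2O and 2.5 (SE 0.74, adjusted p 0.0443) in IMQ+XYF, a DEG in both. Without IMQ+XYF replicate 2 the latter was 1.24 and still called. That call was lost without VAS+H2O replicate 1, 2 or 3, at 2.68, 2.56 and 2.31, or IMQ+XYF replicate 3, at 2.83. Alox12b, the lipoxygenase that oxidizes the linoleic acid of acylceramide, measured 186, 179 and 186 CPM in VAS+H2O, 294, 251 and 219 in IMQ+H2O and 212, 236 and 231 in IMQ+XYF. Every imiquimod library was above every control. Alox12b rose on the log2 scale by 0.46 (SE 0.11, adjusted p 0.0328) in IMQ+H2O and 0.30 (SE 0.07, adjusted p 0.0165) in IMQ+XYF. The IMQ+H2O call held in 1 of 6 fits that left out a library, that without IMQ+H2O replicate 3, with 0.38 to 0.50 in the others, and the IMQ+XYF call was lost without IMQ+XYF replicate 3, at 0.29, and in an edgeR fit of all 9 libraries, at 0.30. Aloxe3 converts the product of Alox12b, and its log2 fold changes were −0.12 (adjusted p 0.572) and −0.22 (adjusted p 0.0743). The IMQ+H2O value of Aloxe3 ran from −0.17 without IMQ+H2O replicate 1 to 0.03 without IMQ+H2O replicate 3. Alox12e measured 352, 309 and 368 CPM in VAS+H2O, 299, 387 and 197 in IMQ+H2O and 255, 318 and 249 in IMQ+XYF. Its ranges overlapped, with log2 fold changes of −0.23 (SE 0.23, adjusted p 0.493) and −0.32 (SE 0.12, adjusted p 0.0852), the latter called without IMQ+XYF replicate 2, at −0.42. The IMQ+H2O value of Alox12e ran from −0.45 without IMQ+H2O replicate 2 to −0.01 without IMQ+H2O replicate 3, uncalled.

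**Figure D3:**
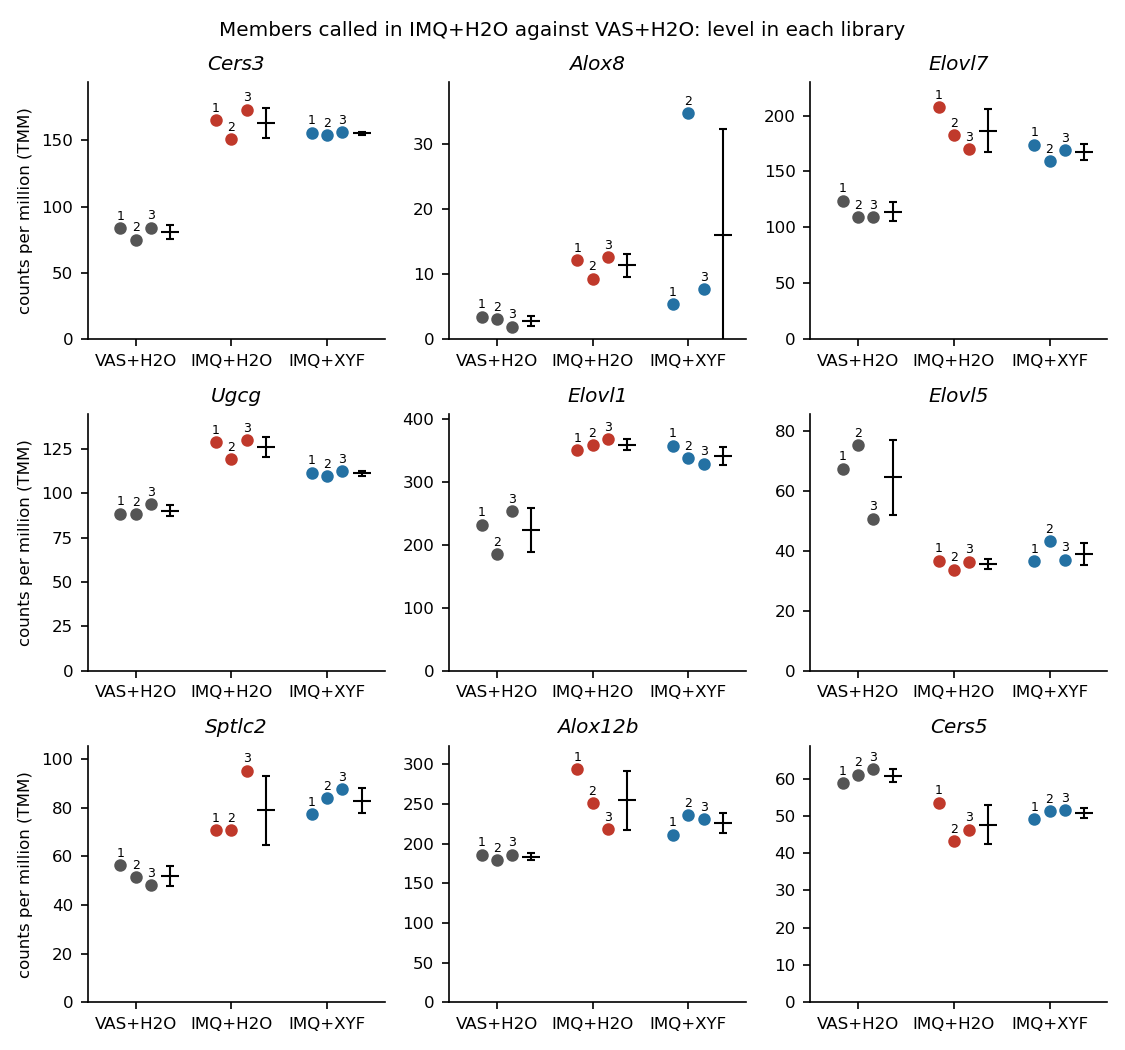
CPM in each library, numbered by replicate, of the 9 members called in IMQ+H2O against VAS+H2O, with the mean and SD of each group in black; in the Alox8 panel the lower SD bar of IMQ+XYF ends at the axis. The 9 were picked by the test of these same libraries, so the lack of overlap between controls and IMQ+H2O in the panels is no further evidence. IMQ+XYF replicate 2 stands at 34.8 CPM for Alox8.

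The ceramidases release sphingosine from ceramide. Of the 5, edgeR called 0 in IMQ+H2O, with 3 at an unadjusted p under 0.05, beside 37.9% of all genes. DESeq2, which called 5112 of 17614 genes, called the same 3: Asah1 higher, and Acer1 and Acer3 lower. Acer1 measured 276, 254 and 312 CPM in VAS+H2O, 235, 220 and 163 in IMQ+H2O and 208, 228 and 198 in IMQ+XYF. It lay under the controls in all imiquimod libraries, at −0.46 (SE 0.15, adjusted p 0.0709) in IMQ+H2O and −0.41 (SE 0.10, adjusted p 0.0218) in IMQ+XYF, called lower. With a library left out the IMQ+XYF call held without VAS+H2O replicate 2 or IMQ+XYF replicate 2, and the value was −0.42 to −0.31 in the other fits. The next 3 ceramidases were chosen after their values were seen. Asah1, the acid ceramidase, measured 39.7, 37.6 and 41.5 CPM in VAS+H2O, 42.8, 65.2 and 62.0 in IMQ+H2O and 45.7, 66.7 and 59.7 in IMQ+XYF. Replicate 1 of each imiquimod group stood just above the controls and the other replicates well above. This amounts to a log2 fold change of 0.50 (SE 0.16, adjusted p 0.0656) in IMQ+H2O, called without IMQ+H2O replicate 1 at 0.71, and 0.53 (SE 0.14, adjusted p 0.0312) in IMQ+XYF. With a library left out the IMQ+XYF call held without IMQ+XYF replicate 1 alone, with 0.43 to 0.59 in the other fits. Acer2, the ceramidase of the Golgi, measured 41.6, 56.6 and 47.6 CPM in VAS+H2O, 57.9, 49.9 and 40.8 in IMQ+H2O and 38.2, 34.3 and 35.0 in IMQ+XYF. IMQ+H2O overlapped the controls, at 0.01, and IMQ+XYF lay under both groups, at −0.44 against VAS+H2O (SE 0.12, adjusted p 0.0386), a call that among fits leaving out a library held without VAS+H2O replicate 1 alone, with −0.47 to −0.31 in the other fits. Acer3 had the lowest log2 fold change of the members in IMQ+H2O, −1.14 (SE 0.38, adjusted p 0.0731). It measured 81.2, 33.2 and 95.1 CPM in VAS+H2O, 27.4, 26.9 and 41.2 in IMQ+H2O and 21.1, 22.0 and 59.4 in IMQ+XYF. VAS+H2O replicate 2 lay inside the imiquimod range, and without it Acer3 was called lower in IMQ+H2O, at −1.47. Without VAS+H2O replicate 3 Acer3 was at −0.82 there and uncalled. Asah2, the neutral ceramidase, was called higher in IMQ+H2O without IMQ+H2O replicate 3, at 0.50. For the sphingosine phosphate genes, Sgpl1 measured 153, 126 and 123 CPM in VAS+H2O, 121, 128 and 106 in IMQ+H2O and 122, 126 and 121 in IMQ+XYF. It was not called, at −0.19 (SE 0.11, adjusted p 0.270) and −0.13 (SE 0.09, adjusted p 0.353), and Sphk1, the kinase, was not called either.

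The 34 members not called in IMQ+H2O ranged from −1.14 (Acer3) to 1.60 (Degs2), and 28 of them lay within 0.5 of 0. The 26 not called in IMQ+XYF against VAS+H2O ranged from −1.03 (Acer3) to 0.45 (Cers2). With a library left out, Acer3 there ran from −1.70 without IMQ+XYF replicate 3 to −0.73 without VAS+H2O replicate 3, still uncalled. With all libraries, DESeq2, which called 5112 of 17614 genes against 3986 of 18009 by edgeR, added 7 calls in IMQ+H2O: Degs2, Elovl4, Abca12, Smpd3 and Asah1 higher, and Acer1 and Acer3 lower. In IMQ+XYF against VAS+H2O DESeq2, with 5941 of 17574 genes called against 5152 of 17954 by edgeR, added Cers2 higher, and Cers4, Fa2h, Slc27a4, Smpd2 and Alox12e lower. An edgeR fit of all 9 libraries added Degs2, Elovl4, Abca12 and Acer1 in IMQ+H2O and Cers4 in IMQ+XYF, and a minimum of 10 counts in every library added Degs2 and Elovl4 in IMQ+H2O. Over all genes in IMQ+H2O the former called 5071 of 18492 and the latter 4011 of 15859, against 3986 of 18009. The fit of all 9 libraries also lost 8 calls in IMQ+XYF, those of Cers5, Elovl4, Abca12, Smpd3, Alox12b, Asah1, Acer1 and Acer2. Over all genes that fit called 5036 of 18492 in IMQ+XYF, against 5152 of 17954. Without a low-count filter Cers5 lost its call in both comparisons, and Elovl4 and Acer2 lost theirs in IMQ+XYF. That setting called 3050 of 29847 genes in IMQ+H2O and 4229 of 29963 in IMQ+XYF. The members lower in IMQ+H2O, 2 in all, became 1 without VAS+H2O replicate 1 or IMQ+H2O replicate 2 or 3, and the 5 lower in IMQ+XYF became 3 without VAS+H2O replicate 2 and 1 without IMQ+XYF replicate 1 or 3. Calls over all genes were 1782 of 18319, 3077 of 18506 and 2131 of 18439 in those IMQ+H2O fits. They were 3459 of 18509 without IMQ+XYF replicate 1 and 3221 of 18512 without IMQ+XYF replicate 3. The 1 higher DEG in IMQ+H2O became 2 without VAS+H2O replicate 1 or 3 or IMQ+H2O replicate 1 and 3 without IMQ+H2O replicate 2, and without VAS+H2O replicate 2 there was 1 lower DEG. The 2 higher DEGs in IMQ+XYF became 1 without VAS+H2O replicate 1, 2 or 3 or IMQ+XYF replicate 3, and without VAS+H2O replicate 3 there was 1 lower DEG. Over all genes DEGs in these fits ran from 717 to 1314 in IMQ+H2O, against 1383, and from 996 to 1350 in IMQ+XYF, against 1371. Without VAS+H2O replicate 2, the library rich in fibroblast, cartilage and muscle markers, 5 members were higher and 2 lower in IMQ+H2O and 8 higher and 3 lower in IMQ+XYF. Calls over all genes went down as well, to 1446 of 18608 in IMQ+H2O and 3849 of 18386 in IMQ+XYF.

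IMQ+XYF against IMQ+H2O asks whether the decoction altered the pathway in imiquimod-treated skin. No member was called: 0 were higher, beside 0.0281% of 17793 genes tested (5 genes), and 0 lower, beside 0% of all genes. The same shares, 0.0281% and 0%, were higher and lower DEGs. By DESeq2, which called 166 genes in all, 0 members passed as well. At an unadjusted p under 0.05 there were 2 members, Acer2 and Ugcg, beside 966 genes in all (5.43%). Acer2, whose libraries are listed above, had a log2 fold change of −0.46 (SE 0.13, p 0.0114, adjusted p 0.642), and all 3 IMQ+XYF libraries were below all 3 IMQ+H2O libraries. Ugcg had −0.17 (SE 0.06, p 0.0292, adjusted p 0.809), again without overlap. Cers3 differed by −0.06 (SE 0.07), Elovl7 by −0.15 (SE 0.09), Elovl5 by 0.14 (SE 0.09) and Alox12b by −0.17 (SE 0.11). These 4 were picked from members called against VAS+H2O, so their differences from the controls are large by selection. No comparison of sizes is drawn from them. Alox8 had the highest value, 0.49 (SE 0.67), and without IMQ+XYF replicate 2 it was −0.79, so its direction rests on that library. The median log2 fold change was −0.05 for the members and 0.00 for all genes, with 17 members above 0 and 26 below. The SE of the members ran from 0.06 to 0.67 with a median of 0.13, which sets the size of difference that 3 libraries per group could show, and a value that misses the threshold does not show equal levels.

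In the imiquimod groups some libraries were the lowest or highest of their group in more members than the share over all genes. For each group the library with the most members at that extreme is named. IMQ+H2O replicate 3 had the lowest granular marker sum and the highest neutrophil marker sum of its group. It was the lowest of its group in 25 of 43 members (58.1%), beside 37.3% of 18492 genes. IMQ+H2O replicate 1 was the highest of its group in 22 members (51.2%), beside 30.4% of genes. In IMQ+XYF, replicate 2 was the highest in 23 members (53.5%, beside 33.2%) and replicate 3 the lowest in 20 (46.5%, beside 34.0%). In VAS+H2O the shares lay closer to those of all genes. There replicate 3 was the highest in 19 members (44.2%, beside 36.7%) and replicate 2 the lowest in 18 (41.9%, beside 38.1%). Without IMQ+H2O replicate 3, 10 members were called higher and 1 lower against VAS+H2O, while calls over all genes went from 3986 of 18009 to 2131 of 18439. What sets these libraries apart was not tested.

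A further 53 genes of sphingolipid, very long chain fatty acid and lipoxygenase metabolism were read alongside, of which 49 could be tested. In IMQ+H2O against VAS+H2O 7 were higher (14.3%, beside 12.7% of all genes) and 8 lower (16.3%, beside 9.41%), with 3 higher DEGs and 1 lower, and a median log2 fold change of −0.09. In IMQ+XYF against VAS+H2O 7 were higher (14.3%, beside 16.7%) and 13 lower (26.5%, beside 12%), with 2 higher DEGs and 1 lower, and a median of −0.19. Between the imiquimod groups edgeR and DESeq2 each called 0, and 1, Hsd17b12, had an unadjusted p under 0.05 in edgeR. Smpdl3b, a membrane-anchored relative of acid sphingomyelinase, had the smallest adjusted p: it measured 8.61, 7.74 and 5.62 CPM in VAS+H2O, 29.5, 23.0 and 25.2 in IMQ+H2O and 23.5, 23.4 and 30.2 in IMQ+XYF. All imiquimod libraries were far above the controls, with 1.81 (SE 0.19, adjusted p 0.00575) in IMQ+H2O and 1.81 (adjusted p 0.00151) in IMQ+XYF. Ephx3, an epoxide hydrolase that acts after the epidermal lipoxygenases, measured 46.9, 38.7 and 54.8 CPM in VAS+H2O and 99.7, 89.3 and 97.5 in IMQ+H2O. It rose by 1.02 (SE 0.13, adjusted p 0.00754) in IMQ+H2O and by 0.88 (adjusted p 0.00364) in IMQ+XYF on the log2 scale. Nipal4, a membrane protein mutated in ichthyosis, measured 117, 92.0 and 111 CPM in VAS+H2O and 188, 189 and 195 in IMQ+H2O. It rose by 0.82 (SE 0.10, adjusted p 0.00693) and by 0.72 (adjusted p 0.00320). Sult2b1, which sulfates cholesterol, was higher by 0.77 (adjusted p 0.00796) in IMQ+H2O and by 0.80 (adjusted p 0.00378) in IMQ+XYF. Among the genes that fell were the desaturase Scd2, at 334, 351 and 319 CPM in VAS+H2O and 217, 208 and 186 in IMQ+H2O. The log2 difference was −0.73 (SE 0.09, adjusted p 0.00723) in IMQ+H2O and −0.75 (adjusted p 0.00158) in IMQ+XYF. The microsomal epoxide hydrolase Ephx1 was lower at −0.95 (adjusted p 0.00890) and −0.71 (adjusted p 0.00262), and the fatty acid transporter Slc27a1 at −0.65 (adjusted p 0.00811) and −0.70 (adjusted p 0.00389). Aldh3a2, the fatty aldehyde dehydrogenase, was lower at −0.41 (adjusted p 0.0165) in IMQ+H2O and −0.31 (adjusted p 0.0198) in IMQ+XYF, and the ceramide transfer protein gene Col4a3bp at −0.64 (adjusted p 0.0182) and −0.55 (adjusted p 0.00186). In IMQ+H2O the 7 higher became 4 without VAS+H2O replicate 1 or 2, and the 8 lower became 4 without replicate 1 or 2 and 5 without replicate 3. In IMQ+XYF the 13 lower became 6 without IMQ+XYF replicate 1 and 8 without VAS+H2O replicate 3 or IMQ+XYF replicate 3.

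Gene positions are those of the GENCODE annotation of GRCm38. The lipoxygenase genes lie in a pair of clusters on chromosome 11: Aloxe3, Alox12b and Alox8 within 71.9 kb (chr11:69125896-69197843), and Alox12 and Alox12e within 81.2 kb (chr11:70241457-70322628). Alox12b (chr11:69156989-69169792, plus strand) and Alox8 (chr11:69183932-69197843, minus strand) rose and their neighbour Aloxe3 was not called. Cers3 is at chr7:66743504-66823691 on the plus strand, Elovl1 at chr4:118428093-118432953 on the plus strand and Elovl7 at chr13:108214404-108285683 on the plus strand. Ugcg is at chr4:59189257-59222833 on the plus strand and Sptlc2 at chr12:87305058-87388355 on the minus strand. Of the genes that fell, Elovl5 is at chr9:77917364-77984519 on the plus strand and Cers5 at chr15:99734881-99772885 on the minus strand. Exons of 13 members overlap a gene on the opposite strand and those of 1 member a gene on the same strand. The labels call the libraries strand-specific, whereas the kit named in the methods does not mark strand, and whether counting used strand is not given in the sources used here, so reads of overlapping genes may be shared. Among called members the overlap is 53 bases of Elovl1 (1.94% of its exon length, with Cdc20), 278 of Degs2 (10.8%, with Evl), 247 of Smpd3 (4.72%, with Prmt7) and 343 of Acer1 (14.1%, with a long noncoding RNA gene).

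RefSeq promoter windows of 300 bases, from 250 before to 50 after the transcription start on GRCm38.p6, were given for 39 of the 44 members, 55 windows in all, with 32 members having 1 window. Elovl3, Fa2h, Smpd3, Aloxe3 and Asah1 had none. On both strands 6 motifs were searched, chosen after the data were seen: AP-1 (TGANTCA), grainyhead (AACNGGTT), STAT (TTCNNNGAA), the GC box (GGGCGG), the CCAAT box (CCAAT) and the TATA box (TATAAA). The GC box was in 32 of the 55 member windows (58.2%), beside 35.7% of all 32841 windows, and the TATA box in 2 (3.64%), beside 13.6%. AP-1 was in 8 windows (14.5%, beside 7.81%), STAT in 6 (10.9%, beside 8.30%), CCAAT in 17 (30.9%, beside 37.4%) and grainyhead in 1 (1.82%, beside 2.09%). Overlapping windows of a gene can hold the same site, as in Sphk1, so windows count some sites repeatedly. By gene, of the 39 members with a window, 28 had a GC box, 15 CCAAT, 6 AP-1, 5 STAT, 2 a TATA box and 1 grainyhead. Shares by gene over all genes were not computed, so these counts cannot be set beside the shares of windows. A match describes letters in these windows and is no evidence of binding. Promoters of the 7 synthase, elongase and lipoxygenase members called in IMQ+H2O against VAS+H2O are printed 5′ to 3′ on the strand of the gene, with matches in capitals. Cers3 (chr7:66743254-66743553, plus) holds none of the 6 motifs. Elovl1 (chr4:118427843-118428142, plus, the first of its windows) holds 5 GC boxes on the reverse strand and 1 CCAAT box that overlaps one of them. Elovl7 (chr13:108214154-108214453, plus) holds 3 GC boxes, and so does Cers5 (chr15:99772466-99772765, minus), which fell. Elovl5 (chr9:77917115-77917414, plus), which fell, holds 2 CCAAT boxes on the reverse strand. Alox12b (chr11:69156822-69157121, plus) holds 3 GC boxes on the reverse strand, and Alox8 (chr11:69197794-69198093, minus) holds 1 on the forward strand.
Cers3: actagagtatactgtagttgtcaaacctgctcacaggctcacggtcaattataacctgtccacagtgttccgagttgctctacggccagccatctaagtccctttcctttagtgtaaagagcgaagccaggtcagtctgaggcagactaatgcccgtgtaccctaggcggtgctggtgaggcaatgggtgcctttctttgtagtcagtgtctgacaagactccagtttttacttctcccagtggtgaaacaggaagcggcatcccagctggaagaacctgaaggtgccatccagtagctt
Cers5: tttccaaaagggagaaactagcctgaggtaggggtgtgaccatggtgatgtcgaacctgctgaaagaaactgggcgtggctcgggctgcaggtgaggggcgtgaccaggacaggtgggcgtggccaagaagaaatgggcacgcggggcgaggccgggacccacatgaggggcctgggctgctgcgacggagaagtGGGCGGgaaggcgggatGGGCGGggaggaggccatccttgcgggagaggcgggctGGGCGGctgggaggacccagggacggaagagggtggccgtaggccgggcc
Elovl1: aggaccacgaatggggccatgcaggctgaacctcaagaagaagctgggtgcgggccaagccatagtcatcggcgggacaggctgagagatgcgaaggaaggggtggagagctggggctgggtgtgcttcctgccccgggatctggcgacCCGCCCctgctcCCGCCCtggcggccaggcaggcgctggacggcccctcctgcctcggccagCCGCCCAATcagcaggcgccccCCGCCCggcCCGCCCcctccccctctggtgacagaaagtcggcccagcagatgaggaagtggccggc
Elovl5: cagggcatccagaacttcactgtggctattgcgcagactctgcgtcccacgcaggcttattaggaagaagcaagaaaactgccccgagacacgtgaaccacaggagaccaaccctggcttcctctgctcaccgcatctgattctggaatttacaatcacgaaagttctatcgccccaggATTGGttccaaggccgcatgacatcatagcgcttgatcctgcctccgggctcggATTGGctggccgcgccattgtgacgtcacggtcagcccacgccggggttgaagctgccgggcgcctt
Elovl7: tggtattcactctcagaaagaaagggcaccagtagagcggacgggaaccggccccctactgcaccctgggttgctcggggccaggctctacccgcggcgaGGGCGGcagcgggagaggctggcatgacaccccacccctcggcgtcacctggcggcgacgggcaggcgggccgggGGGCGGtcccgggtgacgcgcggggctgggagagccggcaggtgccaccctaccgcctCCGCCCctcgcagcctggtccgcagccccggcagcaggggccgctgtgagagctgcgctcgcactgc
Alox12b: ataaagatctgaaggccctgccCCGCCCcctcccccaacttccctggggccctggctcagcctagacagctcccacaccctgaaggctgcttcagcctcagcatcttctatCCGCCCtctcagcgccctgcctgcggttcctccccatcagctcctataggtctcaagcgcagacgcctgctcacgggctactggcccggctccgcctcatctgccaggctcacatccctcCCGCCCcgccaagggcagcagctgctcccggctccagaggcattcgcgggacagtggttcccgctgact
Alox8: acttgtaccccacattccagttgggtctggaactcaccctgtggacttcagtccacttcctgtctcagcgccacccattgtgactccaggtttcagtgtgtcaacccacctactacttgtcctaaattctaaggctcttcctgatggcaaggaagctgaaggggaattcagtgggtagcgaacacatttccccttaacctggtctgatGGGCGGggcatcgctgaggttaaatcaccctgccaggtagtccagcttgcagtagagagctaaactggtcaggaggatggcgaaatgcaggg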

How the data were processed

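The deposited table holds raw counts per gene that the authors made from RNA-seq reads of 9 libraries. The submitters' processing notes name FastQC, STAR 2.5, Cuffnorm and DESeq 1.22.1, and the methods name STAR with an Ensembl annotation of GRCm38; the counting tool and its strand setting are not given in the sources used here. Of 52550 genes, 21327 had no count, and 92 symbols occur more than once, none of them a member's. Groups came from the labels. Each comparison was fitted on its own 6 libraries in R 4.3.3 with edgeR 4.0.16: filterByExpr, TMM factors, glmQLFit and glmQLFTest, with Benjamini-Hochberg adjustment over all genes tested. The SE is the absolute log2 fold change divided by the square root of F. CPM used TMM factors over the 18492 genes that passed the filter in all 9 libraries, and union exon lengths came from the GENCODE annotation of GRCm38.

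The members and lists were chosen with earlier results of these data known. Full values are given for members called in a comparison, up to the 10 with the smallest adjusted p, for the member of each role with the highest level per length in VAS+H2O, and for up to 8 other pathway genes per comparison. Cers2, Cers4, Smpd2, Asah1, Asah2, Acer2, Acer3, Aloxe3 and any other member outside this rule whose own value is given were chosen after their values were seen. Alternatives were DESeq2 1.42.0, RLE size factors, no low-count filter, a minimum of 10 counts in every library, all 9 libraries in one fit, a replicate block and each library left out in turn. The fits were tested on simulated data. An exact two-sided test of 3 libraries against 3 cannot go below p = 0.1, so model-based tests were used. Floors of 3 counts cover counting error only. No library pair within a group agreed within sampling noise.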

Additional observations from a re-analysis of the deposited data

How the results depend on the processing

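Across 12 alternatives per comparison no member's called fold change changed sign. Cers3, Elovl1, Elovl5, Elovl7, Ugcg and Alox8 were called in all 12 for IMQ+H2O against VAS+H2O, and Sptlc2, Kdsr, Cers3, Degs2, Elovl1, Elovl7 and Ugcg in all 12 for IMQ+XYF against VAS+H2O. In the former, 3 members lost their call in at least 1 alternative (17 values) and 11 gained one (22 values). In the latter, 10 lost a call (56 values) and 7 gained one (14 values). In IMQ+XYF against IMQ+H2O no alternative called a member, and 49 values of 24 members changed sign. For IMQ+H2O against VAS+H2O, DESeq2 gave 12 members higher, 4 lower, 3 higher DEGs and 1 lower DEG, and called more genes in all as well (5112 of 17614, against 3986 of 18009). RLE size factors gave 2 higher DEGs. Without the low-count filter there were 1 lower member and 2 higher DEGs, and the minimum of 10 counts and the fit of all 9 libraries gave 3 higher DEGs each. DEGs over all genes were 1641 with DESeq2, 1384 with RLE size factors and 1181 without the filter, against 1383. They were 1209 with the minimum of 10 counts and 1595 in the fit of all 9 libraries. For IMQ+XYF against VAS+H2O, DESeq2 gave 10 lower members and the absence of a filter 3, while the fit of all 9 libraries gave 7 higher and 3 lower. Over all genes these settings called, in that order, 5941 of 17574, 4229 of 29963 and 5036 of 18492, against 5152 of 17954. Leaving out each library gave, in IMQ+H2O against VAS+H2O, 5 to 10 members higher, 1 to 2 lower, 1 to 3 higher DEGs, 0 to 1 lower DEGs, and 4 to 5 other pathway genes higher and 4 to 6 lower. In IMQ+XYF against VAS+H2O it gave 8 to 10 members higher, 1 to 5 lower, 1 to 2 higher DEGs, 0 to 1 lower DEGs and 6 to 11 other pathway genes lower. Calls over all genes in those fits ran from 1446 of 18608 to 3077 of 18506 in IMQ+H2O against VAS+H2O. In IMQ+XYF against VAS+H2O they ran from 3221 of 18512 to 4544 of 18574. Where fewer libraries entered, fewer samples estimated the spread; otherwise the cause was not tested.

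The replicate block gave 5 higher and 2 lower members in IMQ+H2O against VAS+H2O, and 8 higher, 2 lower and 1 higher DEG in IMQ+XYF against VAS+H2O. Over all genes it called 3002 of 18009 and 3753 of 17954, against 3986 and 5152 without it. DEGs over all genes in IMQ+XYF against VAS+H2O were 1113 with the block, against 1371. In IMQ+H2O against VAS+H2O the block called Fa2h lower, at −0.81, and did not call Sptlc2, Cers5 and Alox12b. In IMQ+XYF against VAS+H2O it did not call Cers5, Abca12, Alox12b, Alox8, Asah1, Acer1 and Acer2. Same-numbered libraries did not deviate together: their correlations across genes were 0.00669, 0.00914 and 0.0292 in IMQ+H2O against VAS+H2O, −0.133, 0.0823 and 0.105 in IMQ+XYF against IMQ+H2O, and −0.0550, 0.0867 and 0.102 in IMQ+XYF against VAS+H2O. Not every library correlated best with its own number, so the numbers are read as names. Sptssb, the member near the floor, cannot be compared at this depth.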
